A study of Homo sapiens with 12 samples.

Results

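The ABC transporter genes were taken as the rows of the deposited gene count table whose whole symbol is ABC, a letter from A to G and a number. Of 54261 rows, 46 had such a symbol. ABCC13, which RefSeq annotates as a transcribed pseudogene and which had 0 counts in every library, was left out, so that 45 genes remained. They comprised 12 genes of subfamily A, 9 of B, 11 of C, 4 of D, 1 of E, 3 of F and 5 of G. The choice used symbols and annotation, not counts.

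HCT116oxR was compared with HCT116, the human colorectal carcinoma line from which it was derived. HCT116oxR had been grown in oxaliplatin at 0.1, then 0.5, 1.0, 2 and finally 5 µmol/L, the last for 1 year, and whether drug was present at harvest is not given in the sources used here. Each line gave 3 total RNA libraries, from cultures that the labels call separately grown and harvested, and 3 small RNA libraries. There was 1 resistant line, so p-values set the line difference against the spread among cultures of each line, not among independently selected lines.

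Total RNA libraries held 12259870 to 13558077 counts in HCT116oxR and 11950069 to 13340564 in HCT116, and no library stood apart in depth. Of 12 colorectal epithelial markers 7 had enough counts to test, and 4 were higher and 1 lower in HCT116oxR. The 12 summed to 3701 to 3782 CPM (counts scaled to a common library size) in HCT116oxR and 3062 to 3170 in HCT116. Most of each sum was KRT8, KRT18 and KRT19. KRT8 and KRT18 were higher, KRT19 was lower, and CDH1 and KRT20 did not pass. CEACAM5 was at 0 in every library, and CDX1, VIL1, LGALS4 and GPA33 had at most 13 counts in a library. Of 12 markers of blood, stromal, endothelial, hepatic, glial and muscle cells the sums were 52.2 to 57.2 CPM in HCT116oxR and 68.2 to 81.5 in HCT116, mostly COL1A1, and of the 4 tested CD68 and COL1A1 were lower in HCT116oxR. PTPRC, CD3E, HBB and GFAP were at 0 in every library. These marker calls stand beside 22.3% higher and 21.8% lower over all genes tested. The part of these marker differences in the results was not tested.

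ABC proteins bind and hydrolyse ATP at paired nucleotide-binding domains and, in most subfamilies, use that energy to move a substrate across a membrane. Members of subfamilies B, C and G include pumps at the cell surface that expel drugs and their glutathione or glucuronide conjugates, the property for which the family is best known in cancer cells. Others export cholesterol and phospholipids, carry fatty acids into peroxisomes, act in mitochondria or lysosomes, or, in subfamilies E and F, lack membrane domains and work on ribosomes.

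Of the 45 genes, 29 passed the filter on low counts and 16 did not. In HCT116oxR 7 of the 29 were higher and 11 were lower than in HCT116 (edgeR quasi-likelihood test, Benjamini-Hochberg adjusted p under 0.05 over all 17511 genes tested). Across all genes tested 44.1% were called, 22.3% higher and 21.8% lower. The share of tested ABC genes that were higher, 24.1%, lay near that background, and the share that were lower, 37.9%, lay above it. Changes of at least 1.5-fold were 2 upward, ABCA3 and ABCG4, and 5 downward, ABCA4, ABCA7, ABCB1, ABCC3 and ABCG2. These were 6.9% and 17.2% of the tested members, against 9.54% and 7.52% of all genes. The median log2 fold change of the 29 genes was -0.11, and that of all genes was -0.00057. The 3 libraries of a line lay above the 3 of the other for 19 of the 29 genes, 65.5%, against 50.5% of all genes. No test of the family as a list was made, so its lean towards lower levels is a description. These are bulk libraries, in which fewer cells expressing a gene and less RNA per cell cannot be told apart. Levels are given as CPM not corrected for transcript length, so they are compared between lines and not between genes.

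**Figure D1:**
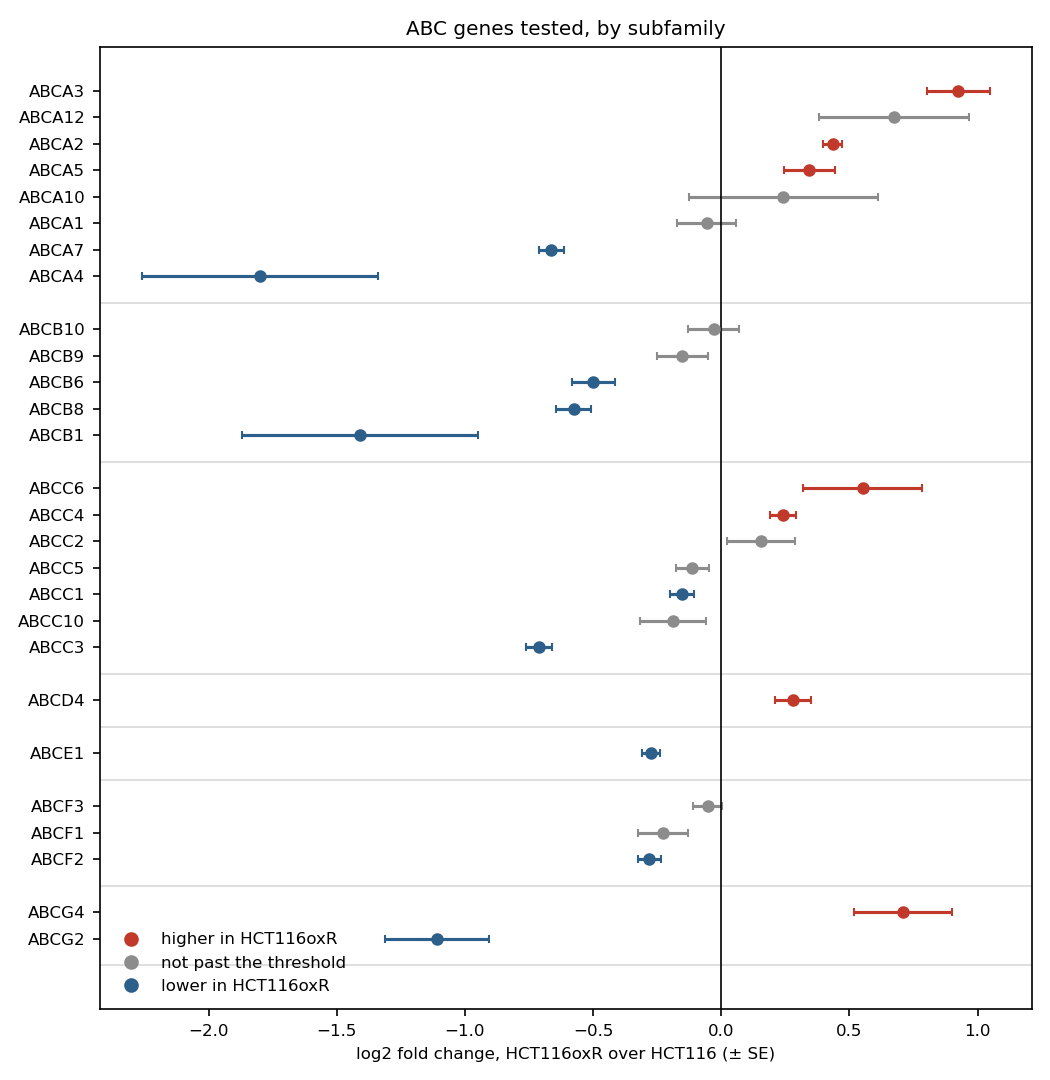
Log2 fold changes of HCT116oxR over HCT116 on the x axis, with the standard error as the horizontal bar, for 27 of the 29 tested ABC genes, grouped by subfamily from A at the top to G at the bottom. Subfamilies A, C and G hold genes called in both directions, from ABCA4 at -1.80 to ABCA3 at 0.93, while in subfamilies B, E and F the called genes are lower.

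Efflux of drugs and their conjugates is the family function that bears most directly on a drug-selected line. Of 10 genes of this group 9 were tested, with 2 higher, 4 lower and 3 not past the threshold. Over all genes tested 22.3% were higher and 21.8% lower, and no test of the group as a list was made. ABCG2, on chromosome 4 (88090264 to 88231626, GRCh38.p14), encodes the breast cancer resistance protein, a pump for camptothecins and many other drugs. It had 60, 66 and 31 counts in the HCT116oxR libraries, against 94, 96 and 132 in the HCT116 libraries. Each HCT116oxR library was below each HCT116 library, and the level was 3.96 ± 1.27 CPM in HCT116oxR and 8.62 ± 1.86 CPM in HCT116 (mean ± SD, n = 3 each). The fall was 2.16-fold (log2 fold change -1.11 ± 0.20, SE, edgeR adjusted p = 1.97e-06). ABCB1, on chromosome 7 (87503017 to 87713295), encodes P-glycoprotein, the classic multidrug efflux pump. It was near the floor of detection, with 10, 6 and 10 counts in HCT116oxR and 32, 20 and 15 in HCT116. Its fall (-1.41 ± 0.46, edgeR adjusted p = 0.00801) was not called without HCT116 replicate 1 (-1.11, edgeR adjusted p = 0.0908) or without HCT116oxR replicate 2 (-1.19, edgeR adjusted p = 0.0505).

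The ABCC genes of this group encode the multidrug resistance-associated proteins, which carry organic anions and conjugates. ABCC3, on chromosome 17 (50634881 to 50692253), encodes a basolateral exporter of glucuronides and bile salts. It had 92.9, 86.8 and 91.1 CPM in HCT116oxR, against 150.2, 141.6 and 151.03 CPM in HCT116. The lines were far apart relative to their spread, and the fall was 1.64-fold (-0.71 ± 0.05, edgeR adjusted p = 3.99e-26). ABCC1, the first of these proteins to be described and an exporter of glutathione conjugates, had 133.3, 125.04 and 126.2 CPM in HCT116oxR, against 144.8, 141.9 and 140.7 CPM in HCT116. Its libraries did not overlap either, but the difference was small (-0.15 ± 0.05, edgeR adjusted p = 0.00435). ABCC4, an exporter of cyclic nucleotides and prostaglandins, had 136.2, 137.95 and 134.2 CPM in HCT116oxR, against 114.02, 124.3 and 107.4 CPM in HCT116, a rise of 0.24 ± 0.05 on the log2 scale (edgeR adjusted p = 1.48e-05). ABCC1, ABCC3 and ABCC4 thus kept separate levels in the lines, lower for ABCC1 and ABCC3 and higher for ABCC4.

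ABCC2, the apical exporter that carries platinum-glutathione conjugates, had 14.5, 18.8 and 13.4 CPM in HCT116oxR, against 12.4, 13.7 and 15.9 CPM in HCT116. The libraries overlapped and the difference did not pass (0.16 ± 0.13, edgeR adjusted p = 0.358). ABCC5, which exports cyclic nucleotides and nucleotide analogues, stood at 62.2 ± 3.73 CPM in HCT116oxR and 67.4 ± 3.96 in HCT116 (-0.11 ± 0.06, edgeR adjusted p = 0.148). ABCC10, a pump for taxanes that overlaps DLK2 (70 counts over the HCT116oxR and 15 over the HCT116 libraries), stood at 14.3 ± 2.60 CPM in HCT116oxR and 16.3 ± 1.38 in HCT116 (-0.19 ± 0.13, edgeR adjusted p = 0.243). These 3 genes could not be separated between the lines beyond their spread. ABCC6, whose product supports ATP release from cells and is mutated in pseudoxanthoma elasticum, had 61, 93 and 55 counts in HCT116oxR, against 49, 35 and 52 in HCT116. It passed narrowly (0.55 ± 0.23, edgeR adjusted p = 0.0441), and the call rested on single libraries, since the value was 0.31 without HCT116oxR replicate 2 (edgeR adjusted p = 0.391), 0.57 without HCT116 replicate 1 (0.0706) and 0.43 without HCT116 replicate 2 (0.174). ABCC6 has near-identical pseudogene copies, ABCC6P1 and ABCC6P2, whose rows held 1 and 0 counts over all 6 libraries.

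**Figure D2:**
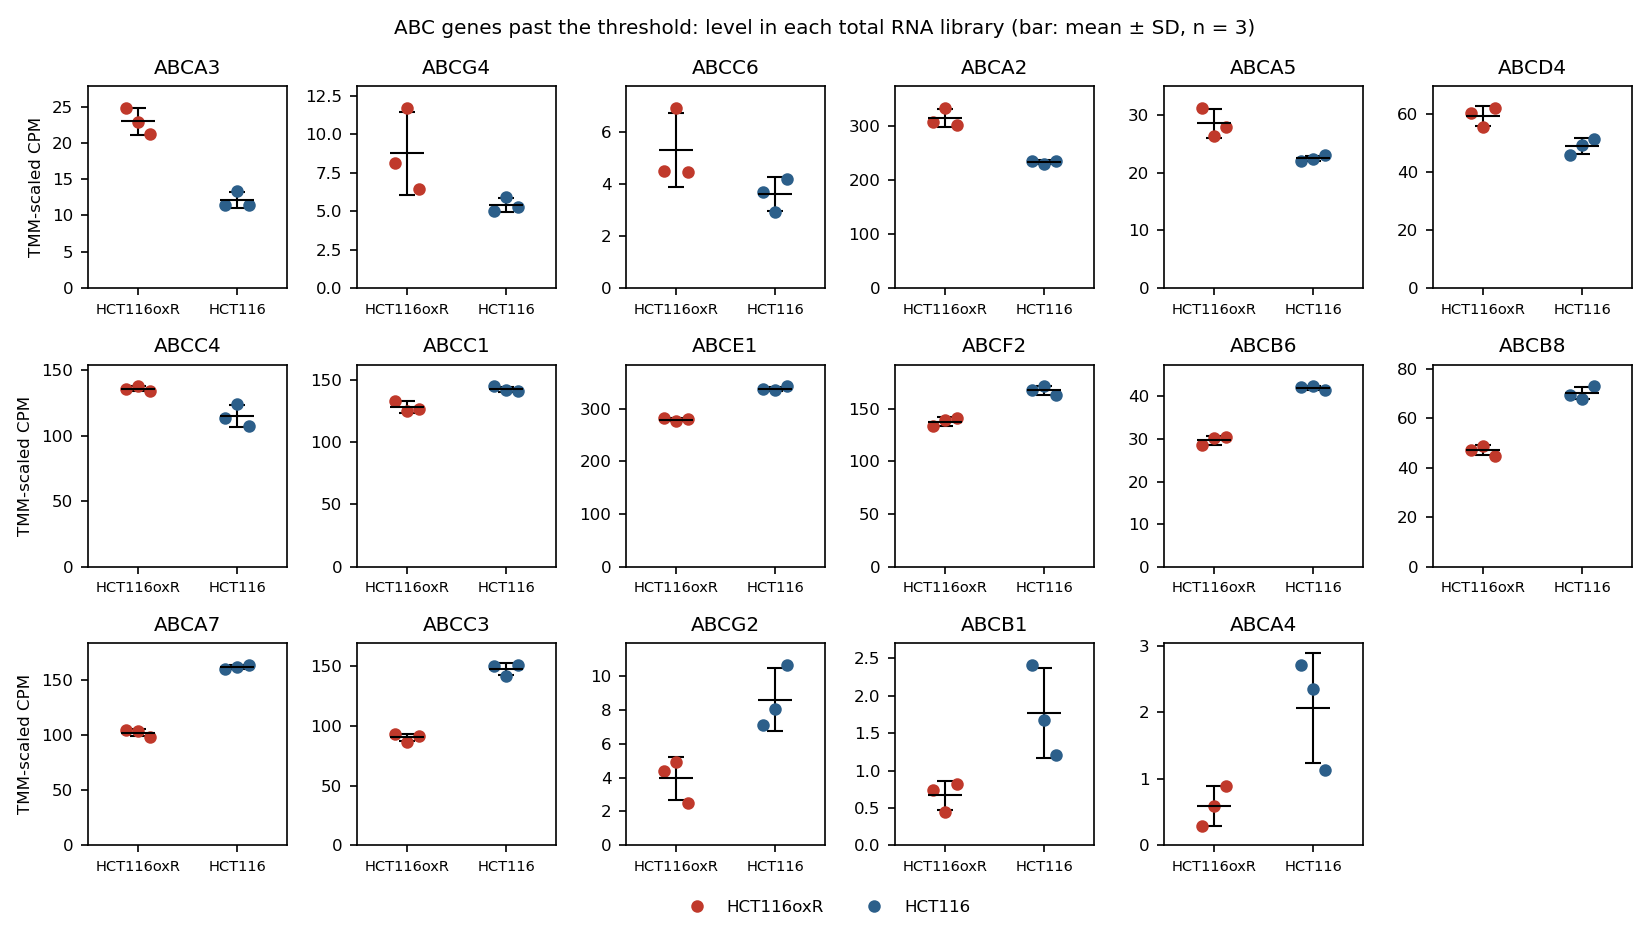
Level of 17 of the 18 called ABC genes in each total RNA library, as TMM-scaled CPM on a linear axis from 0, with HCT116oxR on the left and HCT116 on the right of each panel and bars for mean ± SD. Panels run from ABCA3, the largest rise, to ABCA4, the largest fall, and in each panel the 3 libraries of a line lie on 1 side of the other line's 3.

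Subfamily A encodes large transporters that move lipids across membranes. Of its 12 genes 8 were tested, with 3 higher, 2 lower and 3 not past the threshold, beside 22.3% higher and 21.8% lower over all genes tested. ABCA3, on chromosome 16 (2275881 to 2340728), loads phospholipids into the lamellar bodies of lung surfactant-producing cells. It had 24.9, 22.8 and 21.2 CPM in HCT116oxR, against 11.5, 13.4 and 11.5 CPM in HCT116. Every HCT116oxR library exceeded every HCT116 library, a rise of 1.90-fold (0.93 ± 0.12, edgeR adjusted p = 7.19e-11). ABCA7, on chromosome 19 (1040107 to 1065572), is a phospholipid transporter and a risk gene for Alzheimer's disease. It had 104.4, 104.2 and 98.2 CPM in HCT116oxR, against 160.6, 161.6 and 163.9 CPM in HCT116, a fall of 1.58-fold (-0.66 ± 0.05, edgeR adjusted p = 1.51e-25). ABCA3 and ABCA7 were thus relatives that moved in opposite directions with little spread.

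Their RefSeq promoter windows are shown because both genes changed by at least 1.5-fold, in opposite directions within 1 subfamily, and each gene has 1 annotated window of 300 bases, 250 before and 50 after the start. Capitals mark matches, on either strand, to the GC box motif GGGCGG, the CCAAT box motif of the same letters, the TATA box motif TATAAA, the E-box motif CACGTG or the antioxidant response element core TGACNNNGC. The ABCA3 window lies at chr16:2340679-2340978 on the minus strand and the ABCA7 window at chr19:1039857-1040156 on the plus strand, both in GRCh38.p14 and written 5′ to 3′.
ABCA3: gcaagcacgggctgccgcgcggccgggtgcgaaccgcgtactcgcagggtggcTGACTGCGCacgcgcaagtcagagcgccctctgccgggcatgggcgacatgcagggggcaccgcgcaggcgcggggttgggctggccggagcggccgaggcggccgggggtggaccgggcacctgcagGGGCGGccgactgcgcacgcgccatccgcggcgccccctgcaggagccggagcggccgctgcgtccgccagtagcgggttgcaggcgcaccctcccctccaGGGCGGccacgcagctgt
ABCA7: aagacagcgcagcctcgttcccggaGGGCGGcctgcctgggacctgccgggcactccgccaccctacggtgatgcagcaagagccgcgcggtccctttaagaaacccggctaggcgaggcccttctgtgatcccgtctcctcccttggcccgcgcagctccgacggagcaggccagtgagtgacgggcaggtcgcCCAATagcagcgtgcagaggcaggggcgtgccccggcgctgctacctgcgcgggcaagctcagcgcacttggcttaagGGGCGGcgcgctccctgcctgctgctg
The ABCA3 window held 2 GC boxes and 1 antioxidant response element core, and the ABCA7 window held 2 GC boxes and 1 CCAAT box. GC boxes occur in 45.0% of the 35116 RefSeq windows, CCAAT boxes in 34.6% and antioxidant response element cores in 13.3%. A match is a run of letters and not a bound site.

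ABCA2, an endolysosomal lipid transporter first linked to drug resistance through estramustine, had 308.8, 334.8 and 302.7 CPM in HCT116oxR, against 234.9, 229.6 and 236.01 CPM in HCT116. All HCT116oxR libraries were higher (0.43 ± 0.04, edgeR adjusted p = 2.86e-20). ABCA5, a transporter of lysosomes and late endosomes, had 26.5 to 31.3 CPM in HCT116oxR and 22.1 to 23.1 in HCT116, and also rose (0.34 ± 0.10, edgeR adjusted p = 0.00279). ABCA4, on chromosome 1 (93992834 to 94121148), clears retinoid compounds in photoreceptors and had few reads, with 4, 8 and 11 counts in HCT116oxR, against 36, 28 and 14 in HCT116. It fell by 1.80 ± 0.46 on the log2 scale (edgeR adjusted p = 6.15e-04), and its counts were low enough that the size is imprecise, from -2.19 to -1.47 when single libraries were left out.

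ABCA1, the exporter that passes cholesterol and phospholipid to apolipoprotein A-I, had 17.9, 18.9 and 18.4 CPM in HCT116oxR, against 18.3, 18.7 and 20.5 CPM in HCT116. Its libraries overlapped and it did not pass (-0.06 ± 0.12, edgeR adjusted p = 0.736). ABCA12, which fills the lamellar granules of skin with glucosylceramide, lay just outside the threshold (39, 51 and 45 counts in HCT116oxR, 34, 23 and 24 in HCT116, 0.68 ± 0.29, edgeR adjusted p = 0.0508). It was called without HCT116oxR replicate 1 (0.79) and without HCT116 replicate 1 (0.83). ABCA10 was imprecise, at 22, 35 and 22 counts in HCT116oxR and 28, 15 and 21 in HCT116 (0.24 ± 0.37, edgeR adjusted p = 0.636).

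In subfamily G, whose other members carry sterols, 2 of 5 genes were tested. ABCG4, on chromosome 11 (119149052 to 119162666), is a sterol exporter known mainly from brain. It had 110, 157 and 79 counts in HCT116oxR, against 66, 70 and 65 in HCT116. HCT116oxR libraries were higher but scattered, and the rise (0.71 ± 0.19, edgeR adjusted p = 0.00105) was 0.44 and no longer called without HCT116oxR replicate 2 (edgeR adjusted p = 0.0972). ABCG1, which with ABCA1 exports cholesterol to lipoproteins, had 2 counts in each HCT116oxR library and 0 in each HCT116 library. Both lie under the floor of 3 counts per library, so no fold is given.

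The tested B genes that work inside organelles had more counts in every library than ABCG2 and ABCG4. Of the B genes of mitochondria and lysosomes, ABCB6, a porphyrin transporter, had 28.5, 30.2 and 30.5 CPM in HCT116oxR, against 42.1, 42.4 and 41.4 CPM in HCT116. ABCB8, a mitochondrial inner membrane protein linked to iron export, had 47.3, 48.8 and 44.8 CPM in HCT116oxR, against 69.4, 67.9 and 72.8 CPM in HCT116. Both fell without overlap, ABCB6 by 0.50 ± 0.08 (edgeR adjusted p = 2.15e-07) and ABCB8 by 0.58 ± 0.07 on the log2 scale (edgeR adjusted p = 4.51e-13).

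Their promoter windows are shown because ABCB6 and ABCB8 moved together by nearly the same amount. The ABCB6 window lies at chr2:219218909-219219208 on the minus strand and the ABCB8 window at chr7:151028200-151028499 on the plus strand, in GRCh38.p14 from RefSeq, with the same motifs in capitals.
ABCB6: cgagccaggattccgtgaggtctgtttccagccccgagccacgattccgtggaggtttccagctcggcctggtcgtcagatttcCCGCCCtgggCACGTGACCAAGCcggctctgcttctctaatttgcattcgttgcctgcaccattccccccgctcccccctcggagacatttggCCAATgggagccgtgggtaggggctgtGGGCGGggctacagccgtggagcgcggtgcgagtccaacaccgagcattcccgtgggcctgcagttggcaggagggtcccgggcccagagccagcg
ABCB8: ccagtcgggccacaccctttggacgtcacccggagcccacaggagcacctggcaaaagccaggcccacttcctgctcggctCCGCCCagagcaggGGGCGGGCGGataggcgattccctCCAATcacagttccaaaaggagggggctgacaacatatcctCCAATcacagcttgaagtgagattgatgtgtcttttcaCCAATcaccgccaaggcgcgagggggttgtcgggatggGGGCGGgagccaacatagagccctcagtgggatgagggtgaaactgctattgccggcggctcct
The ABCB6 window held 2 GC boxes, 1 CCAAT box, and an E-box that overlaps an antioxidant response element core. The ABCB8 window held 4 GC boxes, some of them overlapping, and 3 CCAAT boxes. E-boxes occur in 7.26% of all windows. Of the 45 ABC genes 35 had an entry in the table of promoter windows, with 53 windows among them. Of these windows 47.2% held a GC box, 22.6% a CCAAT box, 17.0% an E-box, 22.6% an antioxidant response element core and 15.1% a TATA box, which occurs in 11.5% of all windows.

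ABCB9 and ABCB10, also organelle genes of subfamily B, did not pass. ABCB10, a mitochondrial transporter needed for heme synthesis in red cell precursors, stood at -0.03 ± 0.10 (edgeR adjusted p = 0.845), and ABCB9, a lysosomal peptide transporter, at -0.15 ± 0.10 (edgeR adjusted p = 0.218). The libraries of the lines overlapped for both.

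Subfamily D brings acyl-CoAs into peroxisomes, except for ABCD4, which releases cobalamin from lysosomes. ABCD4 had 60.3, 55.6 and 62.2 CPM in HCT116oxR, against 45.95, 49.4 and 51.2 CPM in HCT116, a rise of 0.28 ± 0.07 (edgeR adjusted p = 4.12e-04). Every HCT116oxR library lay above every HCT116 library.

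The E and F proteins act in translation and transport nothing. ABCE1, which splits ribosomes after termination, had 282.4, 275.8 and 279.5 CPM in HCT116oxR, against 336.5, 334.6 and 342.5 CPM in HCT116. The libraries of each line lay close together, and the fall was 1.21-fold (-0.28 ± 0.03, edgeR adjusted p = 1.70e-11). ABCF2 fell by a similar amount (133.5, 139.6 and 140.9 CPM in HCT116oxR, 167.8, 171.6 and 163.3 CPM in HCT116, -0.28 ± 0.04, edgeR adjusted p = 3.62e-08). ABCF1, which binds the initiation factor eIF2, lay just outside the threshold, with 24.8, 27.7 and 23.8 CPM in HCT116oxR and 33.4, 29.8 and 25.98 CPM in HCT116 (-0.23 ± 0.10, edgeR adjusted p = 0.0506). It was called without HCT116oxR replicate 2 (-0.29) and without HCT116 replicate 3 (-0.31). ABCF3, the relative of yeast Gcn20, stood at -0.05 ± 0.06 (edgeR adjusted p = 0.491).

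Among the 16 genes with too few counts to test, no library held more than 11 counts. ABCB11, the bile salt export pump of liver, and ABCG8, which with ABCG5 exports plant sterols, were listed at 0 in all 6 libraries. ABCD3, a peroxisomal fatty acid transporter used by most cell types, was also listed at 0 in all 6, and whether its reads were counted under another row could not be told, so its 0 is not read as absence. The floor of 3 counts corresponds to 0.221 to 0.251 CPM in these libraries and covers counting error only. ABCC11 had 3, 3 and 4 counts in HCT116oxR and 7, 5 and 6 in HCT116, and it overlaps LONP2, a gene with 3009 counts over the HCT116oxR and 2897 over the HCT116 libraries. ABCC12 had 1, 0 and 1 counts in HCT116oxR and 1, 11 and 0 in HCT116, and ABCB4, the bile phosphatidylcholine transporter, had 0, 0 and 2 in HCT116oxR and 0, 11 and 4 in HCT116. In both genes most counts came from HCT116 replicate 2.

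ABCA13 had 6, 1 and 4 counts in HCT116oxR and 1, 3 and 2 in HCT116. ABCA6 had 0, 2 and 0 in HCT116oxR and 0, 4 and 2 in HCT116, ABCA9 had 0, 1 and 2 in HCT116oxR and 4, 4 and 1 in HCT116, and ABCA8 had 1, 1 and 0 in HCT116oxR and 0, 0 and 1 in HCT116. These 3 genes lie next to ABCA10 and ABCA5 on chromosome 17, where only ABCA5 and ABCA10 had enough counts to test. The sulfonylurea receptor genes, whose products gate potassium channels, were as low, with 1, 0 and 0 counts in HCT116oxR and 0, 3 and 0 in HCT116 for ABCC8, and 0, 0 and 0 in HCT116oxR and 3, 0 and 3 in HCT116 for ABCC9. ABCD2, a peroxisomal fatty acid transporter gene, had 3, 1 and 3 in HCT116oxR and 3, 4 and 3 in HCT116. ABCB5 had 0, 2 and 0 in HCT116oxR and 0 throughout HCT116, and ABCG5 had 0 throughout HCT116oxR and 0, 2 and 2 in HCT116. None of these genes was tested, since the counts were too few.

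**Figure D3:**
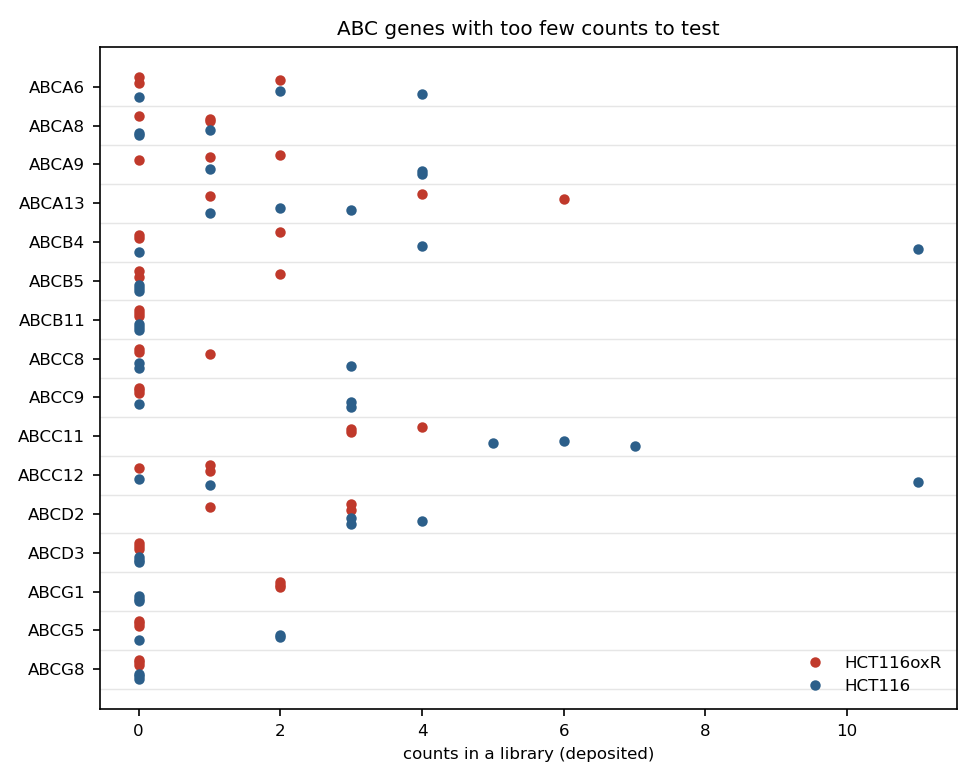
Deposited counts on the x axis for the 16 ABC genes that failed the filter on low counts, 1 point per library, with HCT116oxR above HCT116 in each row. No point lies beyond 11 counts, and ABCB11, ABCD3 and ABCG8 have every point at 0.

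To show whether a member moved with its place on the chromosome, each was set beside the 5 nearest tested protein-coding genes on either side. ABCA2 lies near the end of the long arm of chromosome 9, where its neighbours had a median log2 fold change of -0.42, with 7 of 10 lower and 0 higher, while ABCA2 itself was at 0.43. ABCF2 and ABCB8 lie close together on chromosome 7, with neighbour medians of -0.28 for both. ABCF2 at -0.28 did not stand apart from that level, whereas ABCB8 was lower at -0.58. ABCA5 at 0.34 likewise matched its neighbours, which spanned 5.04 Mb and had a median of 0.36 with 5 of 10 higher.

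The 7 members that changed by at least 1.5-fold were chosen for that size. Around any member the neighbour median largest in size was -0.42, around ABCA2, which is short of 1.5-fold. A mismatch was thus fixed in advance, and the values are given as a description. Around ABCG2 the median was 0.23 against -1.11 for the gene, around ABCB1 0.17 against -1.41, around ABCC3 0.03 against -0.71, around ABCA7 -0.09 against -0.66 and around ABCA3 -0.11 against 0.93. Around ABCA4 the median was -0.24 against -1.80, and around ABCG4 -0.06 against 0.71. ABCC1 and ABCC6 are direct neighbours on chromosome 16 and share the same surrounding genes, at a median of 0.24 with 4 of 10 higher, yet ABCC1 was at -0.15 and ABCC6 at 0.55. Of the 18 called members, 8 had neighbours with a median of their own sign and 10 of the opposite sign. Some of these medians lay near 0, such as 0.03 around ABCC3 and -0.04 around ABCD4. The same count was not made over all called genes, so it is not read as a result about the members.

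**Figure D4:**
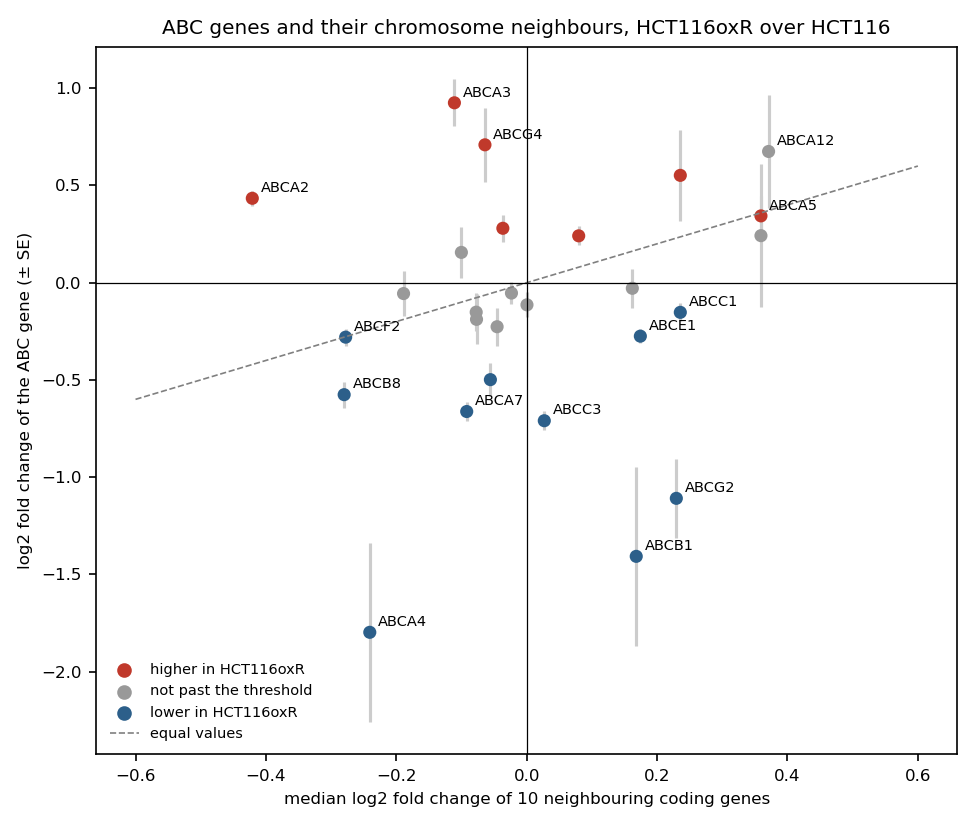
Log2 fold change of 27 of the 29 tested ABC genes (y axis, ± SE) against the median of the 10 nearest tested protein-coding genes on the same chromosome (x axis), HCT116oxR over HCT116, with the dashed line marking equal values. ABCF2 and ABCA5 lie close to the line, and ABCA2, ABCA3, ABCC3, ABCG2 and ABCB1 lie far from it.

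Reads of overlapping genes may be shared, as the counting is not stated to use strand. Of the 18 called members 5 overlap another protein-coding gene. ABCB1 overlaps RUNDC3B, which had 574 counts over the HCT116oxR and 492 over the HCT116 libraries, ABCE1 overlaps ANAPC10 with 513 and 431, and ABCA5 overlaps ABCA10 with 79 and 64, in the same order of lines. ABCF2 and ABCG2 overlap ABCF2-H2BK1 and LOC124900867, for which the table had no row. In all 3 pairs with counts the partner's total was higher in HCT116oxR. These totals are not scaled to library size, and ABCA10 itself did not pass (0.24 ± 0.37, edgeR adjusted p = 0.636). The part of shared reads in the results was not tested.

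Family members with other symbols and the genes around the family were read in the same fit. TAP2, a subunit of the peptide transporter of antigen presentation, was lower (88.1 ± 4.02 CPM in HCT116oxR, 99.3 ± 0.429 in HCT116, -0.17 ± 0.05, edgeR adjusted p = 0.00636), and its partner TAP1 stood at 0.05. CFTR, the chloride channel of the family, had 0 counts in HCT116oxR and 3, 0 and 1 in HCT116. Of 15 tested regulators of ABC genes 2 were higher and 4 lower. Among them NFE2L2, the antioxidant transcription factor that controls several ABCC genes, fell to 188.3 ± 8.01 CPM in HCT116oxR, against 535.6 ± 2.35 in HCT116 (-1.51 ± 0.04), PPARG fell by 0.69 ± 0.09, and YBX1, described as a regulator of ABCB1, rose by 0.82 ± 0.05 on the log2 scale.

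Of 11 tested genes of cholesterol efflux and liver X receptor response 4 were higher and 5 lower, with NPC2, which hands cholesterol out of lysosomes, at 1.23 ± 0.13, MYLIP at 1.02 ± 0.21 and APOE at -1.02 ± 0.43. APOE had few counts, 16, 11 and 9 in HCT116oxR and 22, 17 and 31 in HCT116. Of 21 mitochondrial iron-sulfur and heme genes 1 was higher and 8 lower. CPOX, a heme synthesis enzyme, rose by 0.81 ± 0.03, and SLC25A37, the mitochondrial iron importer that binds ABCB10 in mouse cells, fell by 0.72 ± 0.04, as did the ferredoxin gene listed as FDX1L, by 0.53 ± 0.14. The median of that list was -0.11 against -0.00057 for all genes. Of 26 peroxisomal genes 4 were higher and 6 lower, with ACSL1 at 1.20 ± 0.11 and ACOX3 at -0.69 ± 0.10, and of 9 cobalamin genes 1 was higher and 2 lower, with TCN2 at -0.94 ± 0.27, MTRR at -0.20 ± 0.07 and MMADHC at 0.18 ± 0.05. Of 15 ribosome partners of ABCE1 and the F proteins 4 were higher and 5 lower, with EIF2S2 at 0.91 ± 0.05, EIF5 at 0.26 ± 0.06 and PELO, which acts with ABCE1 in ribosome rescue, at -0.31 ± 0.08.

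Carriers of the SLC families that take up or exchange drugs went both ways as well, with 3 of 11 higher and 3 lower. SLCO3A1 stood at 1.61 ± 0.55, SLC22A18 at 0.69 ± 0.12 and SLC15A1, a peptide transporter, at 0.56 ± 0.17. SLCO3A1 had few counts, 19, 15 and 18 in HCT116oxR and 1, 6 and 9 in HCT116, so its fold is imprecise. The potassium channel partners of ABCC8 and ABCC9 had 1 tested gene, which did not pass. All of these counts stand beside a background of 22.3% higher and 21.8% lower over all genes.

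miRNAs described as targeting ABC mRNAs were read from the small RNA libraries, which held 17125399 to 18147051 counts in HCT116oxR and 16089595 to 16294947 in HCT116. Of 22 such miRNAs 17 passed the filter, with 7 higher, 3 lower and 7 not past the threshold, against 23.5% higher and 21.2% lower of all 975 miRNAs tested (44.7% in all). The mature sequences from RefSeq (GRCh38.p14) are shown for pairs that share a seed and for the miRNAs with the largest changes, 5′ to 3′, with the seed (bases 2 to 8) in capitals.
hsa-miR-27a-3p: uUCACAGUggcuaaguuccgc
hsa-miR-27b-3p: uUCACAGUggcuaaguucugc
hsa-miR-33a-5p: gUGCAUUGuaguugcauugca
hsa-miR-33b-5p: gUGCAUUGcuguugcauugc
hsa-miR-328-3p: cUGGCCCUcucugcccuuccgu
hsa-miR-345-5p: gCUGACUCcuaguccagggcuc
hsa-miR-145-5p: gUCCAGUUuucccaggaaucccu
hsa-miR-379-5p: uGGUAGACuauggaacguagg
hsa-miR-758-3p: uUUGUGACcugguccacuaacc
miR-27a-3p and miR-27b-3p share the seed UCACAGU, and miR-33a-5p and miR-33b-5p share UGCAUUG.

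miR-27a-3p, described as acting on ABCB1 and ABCA1, had 3182, 2848 and 2594 CPM in HCT116oxR, against 5168, 4867 and 5229 CPM in HCT116 (-0.82 ± 0.07, edgeR adjusted p = 1.07e-06). miR-27b-3p, with the same seed, had 5996, 5222 and 4797 CPM in HCT116oxR, against 4967, 4873 and 4923 CPM in HCT116, and did not pass (0.12 ± 0.07, edgeR adjusted p = 0.185). It was called as higher without HCT116oxR replicate 3 (0.18, edgeR adjusted p = 0.0116). miR-27a-3p was thus below its HCT116 level in every HCT116oxR library while miR-27b-3p overlapped, a difference between them that was not itself tested.

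miR-328-3p, described as acting on ABCG2, had 83.3, 89.8 and 93.3 CPM in HCT116oxR, against 60.4, 58.5 and 57.7 CPM in HCT116 (0.59 ± 0.08, edgeR adjusted p = 5.63e-05). miR-33a-5p, which lies in an intron of SREBF2 and acts on ABCA1, had 22.5, 15.6 and 15.4 CPM in HCT116oxR, against 19.5, 18.2 and 18.7 CPM in HCT116. It overlapped between the lines (-0.08 ± 0.15, edgeR adjusted p = 0.712). miR-33b-5p, with the seed of miR-33a-5p, had 41, 24 and 33 counts in HCT116oxR, against 42, 48 and 44 in HCT116, and did not pass (-0.63 ± 0.28, edgeR adjusted p = 0.0878).

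miR-145-5p rose the most of the list, to 232.4 ± 13.8 CPM in HCT116oxR, against 94.997 ± 10.5 in HCT116 (1.29 ± 0.09, edgeR adjusted p = 1.55e-07). miR-345-5p, described as acting on ABCC1, rose to 558.7 ± 9.19 CPM in HCT116oxR, against 300.98 ± 13.5 in HCT116 (0.89 ± 0.06). miR-379-5p, described as acting on ABCC2, fell to 7.90 ± 0.579 CPM in HCT116oxR, against 16.8 ± 1.53 in HCT116 (-1.09 ± 0.13), and miR-758-3p, described as acting on ABCA1, fell to 1.25 ± 0.483 CPM in HCT116oxR, against 2.94 ± 0.600 in HCT116 (-1.22 ± 0.35). Both lie in the imprinted cluster of chromosome 14. miR-758-3p had few counts, 33, 14 and 21 in HCT116oxR and 52, 52 and 36 in HCT116. Its value ran from -1.56 to -0.99 when single libraries were left out, so its size is imprecise. The other called miRNAs rose by smaller amounts, miR-125a-5p by 0.35 ± 0.07, miR-455-3p by 0.29 ± 0.09, miR-26a-5p by 0.21 ± 0.05 and miR-128-3p by 0.15 ± 0.05 on the log2 scale. miR-128-3p was not called without HCT116oxR replicate 2 (0.13) or without HCT116 replicate 1 (0.14), 2 (0.17) or 3 (0.15). Its call was also lost with DESeq2 (adjusted p = 0.0942) and with a filter of at least 1 CPM in 3 libraries (edgeR adjusted p = 0.0536). miR-455-3p was not called without HCT116oxR replicate 2 (0.28) or without HCT116 replicate 2 (0.25) or 3 (0.28). No effect of any miRNA on an ABC mRNA was measured here.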

How the data were processed

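Total RNA and small RNA of 2 lines were sequenced, with 3 libraries of each kind per line, from RNA with an integrity number above 8.0 per the labels. The values deposited by the authors are raw counts per gene (54261 rows) and per mature miRNA (2588 rows). Alignment was to GRCh38 with HISAT2 (total RNA) and BWA (small RNA) per the submitters' processing notes. No counting tool, annotation release or strand use is given in the sources used here.

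Counts were tested in R 4.3.3 with edgeR 4.0.16 (filterByExpr with its default minimum of 10 and total of 15, TMM factors, robust quasi-likelihood F test, 2-sided), with Benjamini-Hochberg adjustment over all 17511 genes or 975 miRNAs tested and a threshold of 0.05. The SE was derived from the log2 fold change and F, and is approximate at few counts. CPM are TMM-scaled for tested genes. Libraries of a line differed by more than sampling noise (chi-square per degree of freedom at least 2.21). Over pairs of total RNA libraries of a line this ratio ran from 2.21 to 3.01. Over pairs of small RNA libraries it ran from 5.40 to 9.61 in HCT116 and from 20.8 to 67.9 in HCT116oxR. The small RNA libraries of HCT116oxR were thus more scattered than those of HCT116. The fit was run on simulated data with a common spread for all features and changes only in well-counted ones. That run does not bear on genes with few counts. Of the genes tested, 16887 matched RefSeq (GRCh38.p14), 12640 of them protein-coding genes placed on chromosomes.

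Members, gene lists and miRNA lists were chosen with earlier results of these data known. By rule, values per library are given for called members of at least 1.5-fold, for efflux pumps and for ABCA1, ABCG1, ABCE1 and ABCF1 whatever their test. The counts of genes cover all 45 members, but the values of 2 tested members and of 1 listed gene are not reported here. Library values of other members were added after their values were seen. Of each list, up to 3 called genes with the largest changes are named, and miR-27b-3p and miR-33b-5p were added for their seeds. Alternatives were DESeq2 1.42.0, total counts as library size, no filter, at least 1 CPM in 3 libraries, each library left out, a replicate block, and no robust estimation.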

Additional observations from a re-analysis of the deposited data

How the results depend on the processing

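Of the 18 called ABC genes, 15 kept their call and direction under all 12 alternatives, and ABCB1, ABCC6 and ABCG4 lost the call under at least 1. The number of ABC genes called was 18, 17 with DESeq2, 19 with total counts as library size, 17 with no filter on low counts, and 16 to 19 when single libraries were left out (5 to 8 higher and 10 to 12 lower). The listed miRNAs gave 10 calls, 9 with DESeq2, 13 with total counts or no filter, and 8 to 13 with single libraries left out. ABCC6 was not called with DESeq2 (0.55, adjusted p = 0.104) or with no filter (0.55, edgeR adjusted p = 0.0715). ABCA12 was called with total counts as library size (0.68, edgeR adjusted p = 0.0477), and the cause of these shifts was not tested. The labels do not say that replicate numbers mark a shared day or batch. The deviations of same-numbered total RNA libraries correlated at 0.015, -0.031 and -0.035, and those of small RNA libraries at 0.168, -0.041 and -0.168. Differently numbered libraries ran from -0.041 to 0.068 in total RNA and from -0.24 to 0.28 in small RNA. With 3 libraries per line these values do not settle whether the numbers mark pairs. With the replicate block 6 ABC genes were higher and 11 lower, 17 in all, ABCC6 was at 0.54 (edgeR adjusted p = 0.0543), and the listed miRNAs gave 10 calls. The values that changed sign belong to genes and miRNAs called in none of the settings. With single libraries left out ABCB10 ranged from -0.13 to 0.083 (0.083 without HCT116oxR replicate 2, 0.011 without HCT116 replicate 1), ABCC2 from -0.0037 (without HCT116oxR replicate 2) to 0.26, and miR-33a-5p from -0.29 to 0.012 (0.0038 without HCT116oxR replicate 2, 0.012 without HCT116oxR replicate 3). Few counts stand behind the values of ABCB1, ABCA4, ABCA10, APOE and SLCO3A1, with at most 36 in a library.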
